A study of Saccharomyces cerevisiae with 36 samples.

Results

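The genes described here encode the nuclear pore complex and the receptors that carry cargo through it, in the budding yeast Saccharomyces cerevisiae. They were chosen by gene symbol: NUP or KAP followed by digits, or ASM4, NSP1, POM34, POM152, SEH1, GLE1, GLE2, NDC1, NIC96, SRP1, CSE1, CRM1, MSN5, LOS1, MTR10, SXM1, NMD5 or PSE1. The rule found 44 of the 5656 genes measured, 29 pore genes and 15 receptor genes, and all 44 are accounted for below. Yeast in continuous culture was sampled on 36 Affymetrix arrays, at 12 positions about 25 min apart in each of 3 cycles, with 1 array per position and cycle. The labels name no strain, treatment, growth medium or separate cultures, so a group is the 3 arrays of one position, and the p-values cover array-to-array spread alone, which may be technical. The question was which pore and receptor transcripts followed the cycle, and when.

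The pore complex is a channel through the nuclear envelope built of stacked rings, anchored by membrane proteins and lined with proteins rich in phenylalanine-glycine (FG) repeats. The receptors, called karyopherins, bind a cargo and the FG repeats, and the small GTPase Ran sets the direction of travel. Growing yeast imports ribosomal proteins into the nucleus and exports assembled ribosomal subunits, tRNA and mRNA, so much of the traffic through the pore belongs to ribosome production.

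Intensities are given relative to the array median, which was 1 on every array. The arrays carry no depth, and their number limits the precision. A bulk RNA value cannot tell fewer cells expressing a gene from less RNA per cell. Across genes, arrays of the same position correlated with a median r of 0.976 and a lowest r of 0.833. No member was at 0 on any array, and the lowest member value was 0.106. 4 members, CRM1, NUP42, NUP82 and POM34, lay among the dimmest 25% of genes, where a difference on the log2(value + 0.0516) scale used here is understated.

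Measured by a fitted 12-interval cosine, pore transcripts moved little over the cycle, and receptor transcripts moved more. Such a cosine understates a rise 1 array wide, and rises of that kind are described below. A gene was called cycling if a 12-interval cosine fitted its course at an adjusted p below 0.05 in the moderated F test of limma, with adjustment over all genes. Its swing is the height of that fitted cosine, from trough to peak, in log2. 11 of 29 pore genes were called, which is 37.9%, and 10 of 15 receptor genes, which is 66.7%, where 78.8% of all genes were called. The median swing was 0.34 log2 for the pore genes, 0.64 for the receptor genes and 0.77 for all genes. The fitted SE was of similar size in the 3 sets, with a median of 0.14 log2 for the pore genes, 0.19 for the receptor genes and 0.17 for all genes. A swing under 0.5 log2 was found for 20 of 29 pore genes, 7 of 15 receptor genes and 29.0% of all genes. Among the 4015 genes whose mean intensity fell within the range of the members, 80.5% were called and the median swing was 0.80 log2.

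A called swing of at least 1 log2 (2-fold) was reached by 1 pore gene, NUP145, and by 4 receptor genes, SXM1, KAP123, LOS1 and NMD5, against 38.1% of all genes. A 12-level position factor, which assumes no cosine shape, called 16 pore genes and 10 receptor genes where it called 74.6% of all genes. The cosine calls of 10 members held in every alternative that was run: KAP123, KAP95, LOS1, NMD5, NUP120, NUP145, NUP2, PSE1, SEH1 and SXM1. The calls of 11 members were lost when 1 cycle was left out. Without cycle 1 they were KAP120, MTR10, NUP1, NUP116 and POM34, without cycle 2 GLE2, KAP120, KAP122, NUP116, NUP133 and POM34, and without cycle 3 ASM4, GLE1, KAP104, KAP120, MTR10, NUP116 and NUP133. Pore genes called numbered 8, 7 and 8 without cycles 1, 2 and 3, and receptor genes 8, 8 and 7. The share of all genes called also fell in these fits, from 78.8% to 69.2%, 70.1% and 69.8%.

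**Figure D1:**
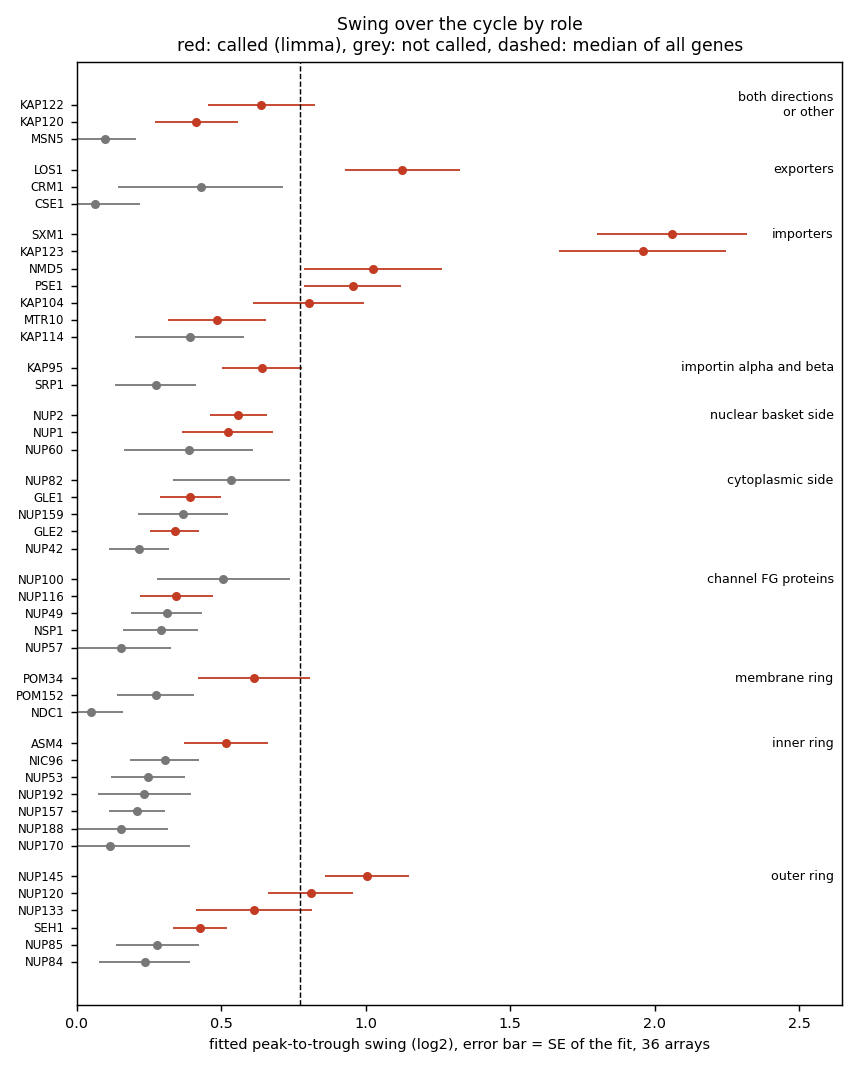
Fitted peak-to-trough swing in log2 (x axis) of each of the 44 genes, grouped by role, with error bars showing the SE of the fit to 36 arrays. Red points were called by limma, grey points were not, and the dashed line is the median of all genes at 0.77, to the right of most pore genes.

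The fitted peaks of the called genes were counted by stretch of the cycle. Of the 11 called pore genes, 2 had a fitted peak at positions 1 to 3, 1 at positions 4 to 6, 2 at positions 7 to 9 and 6 at positions 10 to 12. Of the 10 called receptor genes the numbers were 1, 1, 7 and 1. Over all genes, 15.5%, 23.2%, 18.0% and 22.1% were called with a peak in these stretches. Counted out of all 29 pore genes, the 6 peaks at positions 10 to 12 lay near the 22.1% of all genes. The 7 of 15 receptor genes with peaks at positions 7 to 9 lay above the 18.0%. No test was made of these counts. The highest position mean of the log2 values fell at position 8 for 9 pore and 2 receptor genes, and at position 9 for 10 pore and 8 receptor genes. The share of all genes was not counted for this measure, so it does not show whether these counts are unusual. Among the 6 pore genes with late fitted peaks, NUP133 was highest at position 8 on this log2 scale. Its mean intensity was 2.82 at position 8 and 2.87 at position 9. ASM4, GLE2 and NUP2 were highest at position 9, and NUP145 and SEH1 at position 1.

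The outer ring, a Y-shaped scaffold that coats the membrane at the pore, held the most called pore genes, 4 of 6. That share of 66.7% lay below the 78.8% of all genes and equalled that of the basket side, 2 of 3. NUP145 encodes a precursor that cleaves itself into an FG protein and an outer ring subunit. Its intensity at position 1 was 2.51, 2.16 and 2.87 in cycles 1, 2 and 3, against 1.41, 1.14 and 1.18 at position 5. Single high arrays also stood at position 9 of cycle 1 (3.09) and position 8 of cycle 3 (3.58). The swing of NUP145 was 1.00 ± 0.15 log2 (SE, 36 arrays) with a peak at position 11.0 (limma adjusted p = 8.06e-07).

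NUP120, another outer ring subunit, had a different timing from NUP145. It was highest at position 3, at 4.54, 3.55 and 3.83, and lowest at position 9, at 2.33, 1.56 and 1.43. The swing was 0.81 ± 0.15 log2 (SE) with a peak at 2.74 (limma adjusted p = 3.77e-05). The other outer ring genes were smaller in swing. NUP133 (0.61 log2, peak 10.2) and SEH1 (0.43 log2, peak 11.6) were called, while NUP85 (0.28 log2) and NUP84 (0.24 log2) were not. NUP84 nevertheless reached 7.08 on position 9 of cycle 1, and NUP85 reached 5.76 there.

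The inner ring, the scaffold that joins the outer rings to the channel, held the flattest group, with 1 of 7 genes called and a median swing of 0.23 log2. The called gene was ASM4, also known as NUP59, at 0.52 ± 0.14 log2 (SE) with a peak at 10.0. NIC96, the linker between ring and channel, had a swing of 0.30 log2, NUP53 0.25, NUP192 0.23, NUP157 0.21, NUP188 0.15 and NUP170 0.11, and none passed the test. NUP170, the smallest, had the widest error of the pore genes at 0.28 log2 (SE), with values from 0.50 to 4.71. Its high and low arrays fell at different positions in different cycles.

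The membrane ring anchors the complex in the envelope. POM34 was called at 0.61 ± 0.19 log2 (SE) with a peak at 7.97, and POM152 at 0.27 log2 and NDC1 at 0.05 log2 were not. NDC1, which also serves in the spindle pole body, ranged from 1.76 to 3.17 over the 36 arrays. Its swing of 0.05 ± 0.11 log2 (SE) was the smallest of all 44 genes and lay at percentile 0.389 of all genes.

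Among the 5 FG proteins of the channel, NUP116 was called with 0.34 log2, and NUP100, NUP49, NSP1 and NUP57 were not, with swings of 0.51, 0.31, 0.29 and 0.15 log2. NUP116 lost its call under both other scalings of the arrays, with an adjusted p of 0.0875 after quantile normalization and 0.0742 with equal trimmed means. On the cytoplasmic side, where mRNA is released, GLE1 (0.39 log2, peak 4.93), the activator of the mRNA export helicase Dbp5, and GLE2 (0.34 log2, peak 11.5), a partner of Nup116, were called. NUP82 (0.53 log2, limma adjusted p = 0.0533), NUP159 (0.37 log2) and NUP42 (0.21 log2) were not. On the basket side, facing the nucleus, NUP2 (0.56 ± 0.10 log2 SE, peak 10.6) and NUP1 (0.52 log2, peak 6.97) were called and NUP60 (0.39 log2) was not. NUP2 stood between 2.28 and 3.18 at position 9 and between 1.74 and 1.84 at position 4.

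Intensities of control probe sets moved as well. The 9 probe sets of the bacterial hybridization controls swung together by 0.53 log2 with a peak at 3.45. Those of 25S ribosomal RNA swung by 0.37 log2 with a peak at 12.3, and those of 18S by 0.18 log2 with a peak at 2.87. The dim poly-A controls swung by 0.04 log2. Fitted in each cycle, the swing was 0.65 ± 0.49 log2 for the hybridization controls and 0.47 ± 0.35 for 25S (SD, n = 3 cycles), so its size varied between cycles. NUP120, GLE1 and KAP120 peaked within 1.5 intervals of the hybridization controls, and SEH1, GLE2, KAP122, NUP116 and NUP145 within 1.5 of 25S. The swings of GLE1, GLE2, KAP120, NUP116 and SEH1 were no larger than 0.43 log2, and the part of the control signals in all 8 was not tested.

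The mean of the pore genes stood out on a single array per cycle. Of the 18 pore genes that the cosine test did not call, 8 had their highest array at position 8 or 9 in all 3 cycles: NUP100, NUP192, NUP49, NUP53, NUP60, NUP82, NUP85 and POM152. The mean of the 29 pore genes, taken as the log2 difference of each gene from its own mean, stood at 0.57 on position 9 of cycle 1, 0.26 on position 8 of cycle 2 and 0.52 on position 8 of cycle 3. On the other 33 arrays it lay between -0.19 and 0.10. The next array in time was back at -0.11 in cycle 1, 0.01 in cycle 2 and -0.02 in cycle 3. On position 9 of cycle 1, 25 of 29 pore genes and 14 of 15 receptor genes stood above their own mean, against 50.2% of all genes. On position 8 of cycle 3 the numbers were 24 pore genes, 10 receptor genes and 47.6% of all genes.

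The rise of the pore mean was thus 1 array wide and fell 1 position later in cycle 1 than in cycles 2 and 3. With equal trimmed means the pore values on these arrays were 0.43, 0.28 and 0.35, and after quantile normalization 0.50, 0.18 and 0.34, so the direction held under both. The highest array of cycle 1 was at position 9 for 20 of 29 pore genes, 10 of 15 receptor genes and 29.6% of all genes. In cycle 2 it was at position 8 for 9 pore genes (31.0%), 5 receptor genes (33.3%) and 19.0% of all genes, and at position 9 for 6 pore genes (20.7%), 5 receptor genes (33.3%) and 18.4% of all genes. The highest array of cycle 3 was at position 8 for 15 pore genes, 9 receptor genes and 28.4% of all genes. In all 3 cycles it lay at position 8 or 9 for 12 pore genes (41.4%), 8 receptor genes (53.3%) and 22.8% of all genes. These arrays were picked out by their values, so the numbers are a description.

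**Figure D2:**
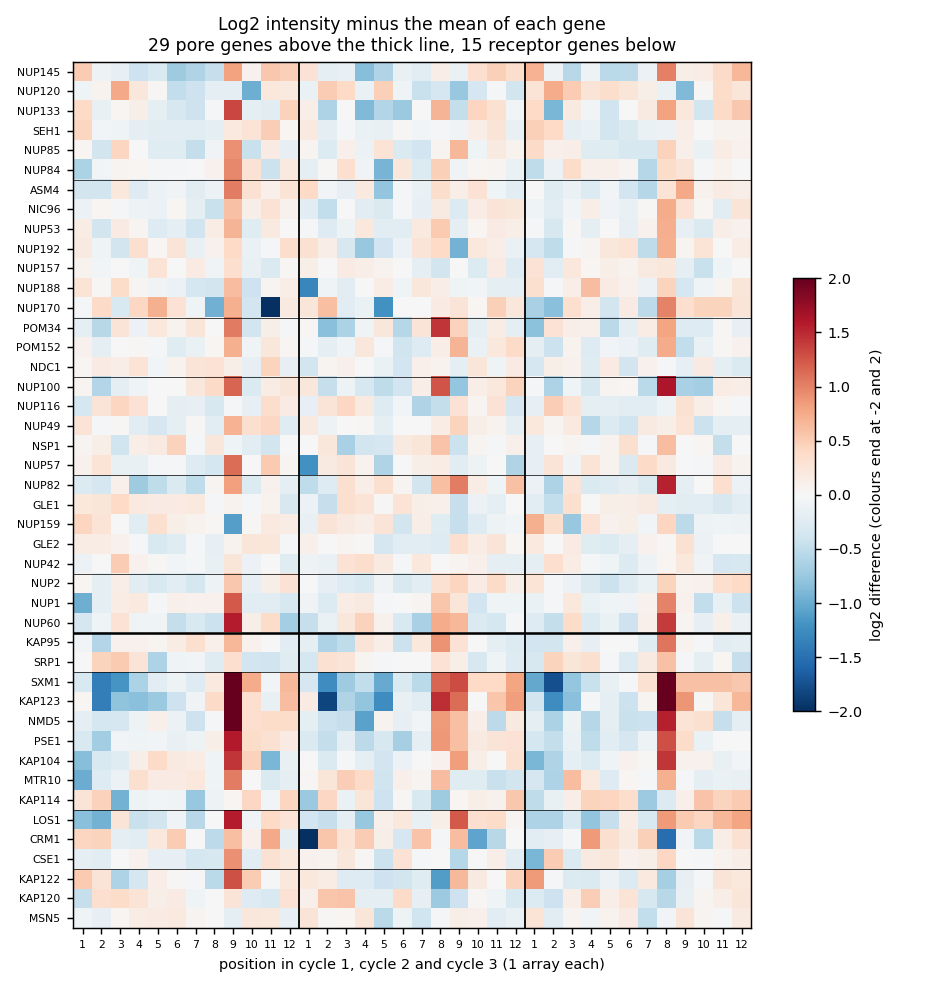
Log2 intensity minus the mean of each gene for the 44 genes (rows, pore above the thick line, receptors below) on the 36 arrays (columns, positions 1 to 12 of cycles 1, 2 and 3). Red columns stand at position 9 of cycle 1 and position 8 of cycle 3, with a fainter one at position 8 of cycle 2. Most pore cells are pale elsewhere, with exceptions such as the low NUP170 at position 11 of cycle 1.

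NUP100, of the channel, reached 4.24 on position 9 of cycle 1, 4.54 on position 8 of cycle 2 and 5.86 on position 8 of cycle 3. All other arrays of NUP100 were at 2.57 or lower, and position 2 stood at 1.22, 1.34 and 1.20. NUP60, of the basket, reached 5.91 on position 9 of cycle 1, 3.30 on position 8 of cycle 2 and 5.23 on position 8 of cycle 3, and position 9 of cycle 2 was nearly as high at 3.14. Neither passed the cosine test, and both passed the position factor, with limma adjusted p = 0.0104 for NUP100 and 0.0241 for NUP60.

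The mean of positions 7 to 9 was also compared with that of the other 9 positions, a stretch chosen with earlier results of these data known. 15 members were called higher, 7 of 29 pore genes and 8 of 15 receptor genes, where 27.1% of all genes were. The pore count lay near that share and the receptor count above it. 5 members were called lower, 3 pore and 2 receptor genes, a smaller share than the 28.6% of all genes. The 7 pore genes were POM34, NUP1, NUP60, NUP100, NUP82, NUP49 and NUP53, with differences from 0.61 down to 0.24 log2. The 8 receptor genes were led by KAP123 at 1.27 ± 0.17 log2 (SE) and SXM1 at 1.10 ± 0.17, and NMD5, PSE1, KAP104, KAP95, LOS1 and MTR10 lay between 0.71 and 0.33. The 5 lower genes were NUP120 (-0.48 log2), KAP114 (-0.40), KAP120 (-0.32), NUP159 (-0.25) and NUP116 (-0.20). Without cycle 2 the higher calls numbered 8 and without cycle 3 they numbered 10, and the lower calls numbered 3, 2 and 3 without cycles 1, 2 and 3.

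**Figure D3:**
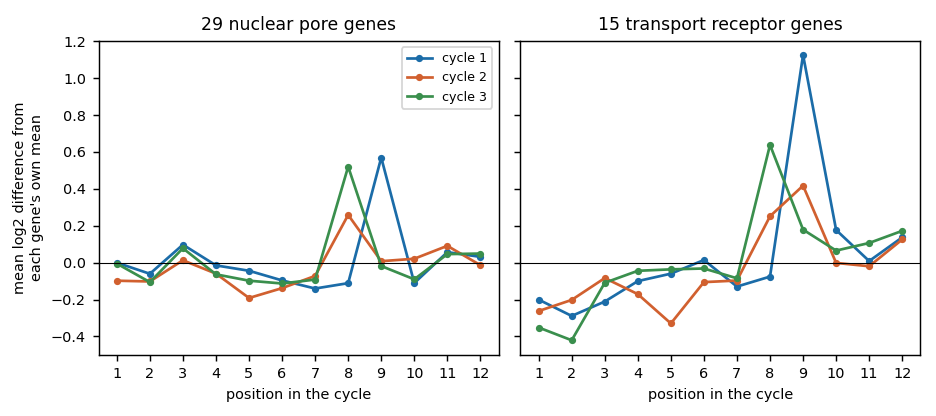
Mean log2 difference of the 29 pore genes (left) and 15 receptor genes (right) from their own means (y axis) against position in the cycle (x axis), 1 line per cycle and 1 array per point. The pore line stays between -0.19 and 0.10 apart from 1 array per cycle, while the receptor line also dips at positions 1 and 2.

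Of the receptors that bring cargo into the nucleus 6 of 7 were called (85.7%), near the 78.8% of all genes, and their median swing of 0.95 log2 lay near the 0.77 of all genes. KAP123 encodes a major importer of ribosomal proteins. At position 2 its intensity was 0.79, 0.56 and 0.87 in cycles 1, 2 and 3. It reached 12.7 on position 9 of cycle 1, 6.05 on position 8 of cycle 2 and 11.6 on position 8 of cycle 3. All 3 position 2 arrays lay below every other array of their own cycle. The swing of KAP123 was 1.96 ± 0.29 log2 (SE) with a peak at 9.25 (limma adjusted p = 1.12e-06), and the peak time over cycles was 9.23 ± 0.40 (SD, n = 3).

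SXM1 encodes a receptor related to Nmd5 that imports the RNA-binding protein Lhp1. It stood at 0.47, 0.53 and 0.35 at position 2, and reached 7.04 on position 9 of cycle 1, 3.32 on position 9 of cycle 2 and 6.78 on position 8 of cycle 3. Its highest values were again single arrays in cycles 1 and 3, but its intensity at positions 10 to 12 (1.26 to 2.30) also lay above that at positions 2 to 4 (0.35 to 0.95) in every cycle. The swing was 2.06 ± 0.26 log2 (SE) with a peak at 9.10 (limma adjusted p = 4.57e-08), the largest of the 44 genes.

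PSE1, a second importer of ribosomal proteins, had the same timing. Its intensity was 5.89, 6.85 and 6.86 at position 2, and 28.8 on position 9 of cycle 1, 17.5 on position 8 of cycle 2 and 23.4 on position 8 of cycle 3. The swing was 0.95 ± 0.17 log2 (SE) with a peak at 9.21 (limma adjusted p = 2.37e-05). NMD5, which imports the stress kinase Hog1 among other cargoes, reached 4.78, 1.56 and 2.55 on those 3 arrays and stayed at 1.29 or lower on all others. The swing of NMD5 was 1.03 ± 0.24 log2 (SE) with a peak at 9.05 (limma adjusted p = 9.11e-04).

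KAP104, the importer of the mRNA-binding proteins Nab2 and Hrp1, was called at 0.80 ± 0.19 log2 (SE) with a peak at 8.08, and MTR10, the importer of the mRNA-binding protein Npl3, at 0.49 log2 with a peak at 6.35. KAP104 reached 5.02 on position 9 of cycle 1, 3.30 on position 9 of cycle 2 and 5.02 on position 8 of cycle 3. KAP114, which imports the TATA-binding protein and histones, had a swing of 0.39 log2 that did not pass the test, and it was the importer called lower at positions 7 to 9.

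The importers kept part of their swing without positions 8 and 9. With those 6 arrays left out, SXM1 swung by 1.62 log2, KAP123 by 1.32, PSE1 by 0.55, KAP104 by 0.51 and NMD5 by 0.48, and each was still called. SXM1 and KAP123 were then the receptor genes with a called swing of at least 1 log2, and no pore gene was.

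**Figure D4:**
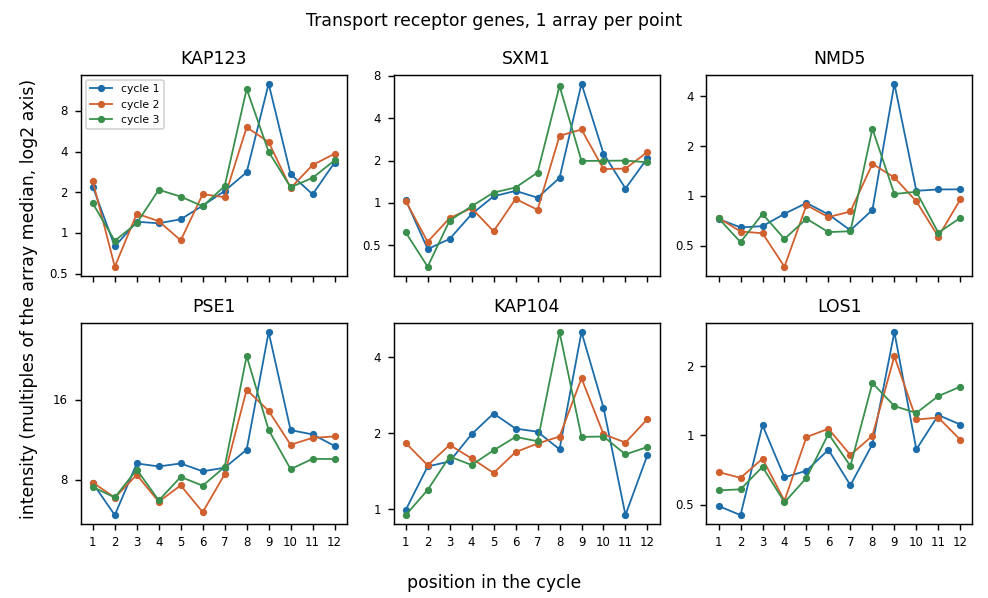
Intensity in multiples of the array median (log2 axis) of 6 receptor genes against position in the cycle, 1 line per cycle and 1 array per point. Each gene peaks at position 9 of cycle 1 and at position 8 of cycle 3, and in cycle 2 at position 8 or 9.

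The classical import pair did not move as one. KAP95, importin beta, stood at 2.39, 2.34 and 2.80 at position 2 and reached 5.79 on position 9 of cycle 1, 6.81 on position 8 of cycle 2 and 7.64 on position 8 of cycle 3. Its swing was 0.64 ± 0.14 log2 (SE) with a peak at 7.73 (limma adjusted p = 3.69e-04), at 7.72 ± 0.12 over cycles (SD, n = 3). SRP1, importin alpha, which links cargo to importin beta, had a swing of 0.27 log2 that was not called. SRP1 had 2 rises per cycle. Position 2 stood at 6.22, 5.65 and 6.26, position 12 at 3.85, 3.82 and 3.29, and a second rise reached 5.80 on position 9 of cycle 1, 5.58 on position 8 of cycle 2 and 6.85 on position 8 of cycle 3.

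Terms with a period of 6 intervals describe courses with 2 rises or with a narrow rise. They were called for 4 members, where 12.4% of all genes were called. The swing of these terms was 0.55 log2 for SRP1 (limma adjusted p = 0.0024), 0.35 for NUP42 (0.0165), 0.42 for NUP116 (0.0200) and 0.73 for NUP60 (0.0268). NUP42 is an FG protein of the cytoplasmic side. No more than 1 of these calls held when any 1 cycle was left out, with 0, 1 and 0 without cycles 1, 2 and 3.

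The exporters were divided. LOS1, the tRNA exporter, stood at 0.45, 0.65 and 0.58 at position 2 and reached 2.82 on position 9 of cycle 1, 2.21 on position 9 of cycle 2 and 1.69 on position 8 of cycle 3. Its swing was 1.13 ± 0.20 log2 (SE) with a peak at 9.35 (limma adjusted p = 2.19e-05). CRM1, the exporter of proteins with leucine-rich signals and of ribosomal subunits, had a swing of 0.43 ± 0.29 log2 (SE), and CSE1, which returns Srp1 to the cytoplasm, had 0.06 ± 0.15. Neither passed the test. CSE1 nevertheless stood at 5.38 on position 9 of cycle 1, where its other 35 arrays lay between 1.48 and 4.04.

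Among the remaining receptors, KAP122, the importer of the transcription factor TFIIA, was called at 0.64 log2 with a peak at 11.5, and KAP120 at 0.41 log2 with a peak at 3.22. KAP120 lost its call with equal trimmed means (adjusted p = 0.104). MSN5, which exports phosphorylated regulators such as transcription factors, had a swing of 0.10 ± 0.11 log2 (SE) and was not called. Its 36 arrays lay between 3.76 and 6.70 with a median of 5.66.

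Pairs of related or partnered genes were compared through the swing of the difference of their log2 values, with a two-sided permutation test that shuffled arrays within cycles (100000 permutations) and with adjustment over the 8 pairs. 4 pairs differed, each with an adjusted p of 0.0007. The swing of the difference was 1.13 log2 between LOS1 and MSN5, 1.03 between SXM1 and NMD5, 1.00 between PSE1 and KAP123, and 0.75 between SRP1 and KAP95. SXM1 and NMD5 peaked together, and SXM1 had the wider swing. PSE1 and KAP123 likewise peaked together, with KAP123 the wider. SRP1 stood highest relative to KAP95 at position 2 and lowest at position 8.

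The other 4 pairs did not pass the permutation test. NUP100 and NUP116, related FG proteins, gave a swing of the difference of 0.78 log2 (permutation p = 0.0563, adjusted p = 0.090). The mean difference of this pair ran over 2.27 log2 between position 2, where NUP116 was relatively highest, and position 8, where NUP100 was. NUP116 stood at 4.63, 4.61 and 4.22 at position 3 and at 3.05, 2.23 and 2.91 at position 7, so it was low just before NUP100 rose. The inner ring pairs NUP157 with NUP170 and NUP53 with ASM4 each gave 0.30 log2, with adjusted p = 0.589 and 0.221 in the permutation test. SRP1 and its exporter CSE1 gave 0.31 log2 (permutation adjusted p = 0.237). Without cycle 1 the pair NUP157 and NUP170 passed, at 0.92 log2 (permutation adjusted p = 0.0217).

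**Figure D5:**
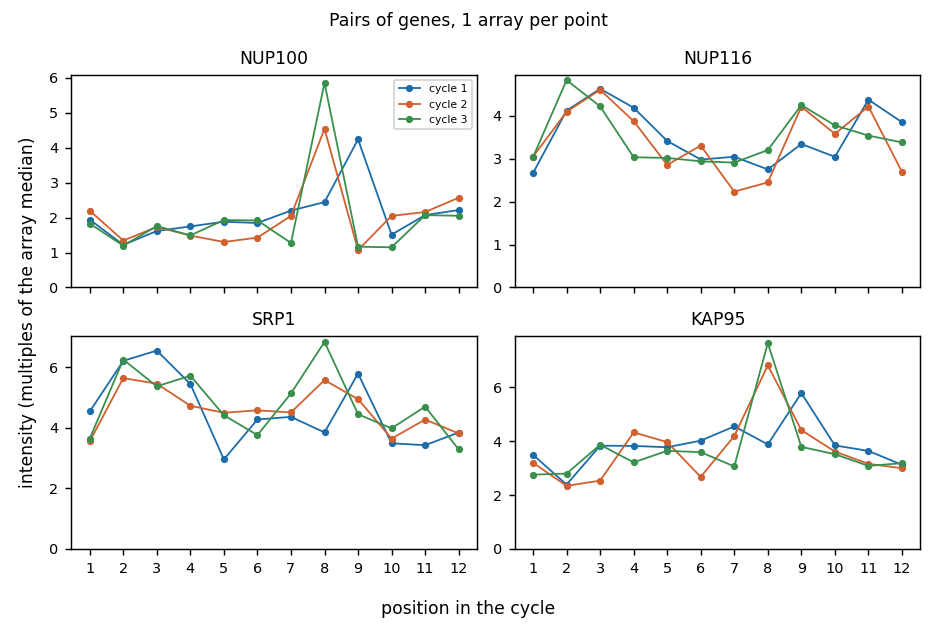
Intensity in multiples of the array median (y axis, linear) of NUP100, NUP116, SRP1 and KAP95 against position in the cycle, 1 line per cycle and 1 array per point. NUP100 and KAP95 rise on 1 array per cycle, while NUP116 and SRP1 are also high at positions 2 and 3.

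The cycles were compared gene by gene. No member was called in limma for a difference in level between cycles, where 0.053% of all genes were called, and 1 member, NUP120, had an unadjusted p under 0.05 (5.73% of all genes did). No member was called for a difference of the 12-interval terms between cycles, where 0.0354% of all genes were called, and 1 member, NUP170, had an unadjusted p under 0.05 (4.61% of all genes did). In simulated data these tests found 56% of level shifts of 0.5 log2 and 84% of swings of 2 log2 present in 1 cycle only, so smaller differences between cycles could be missed. The fitted peak of the pore mean lay at 10.5, 9.71 and 9.15 in cycles 1, 2 and 3, and the highest array of that mean at positions 9, 8 and 8.

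Members did not move as a block. Over the 36 arrays, the median correlation between pore genes was 0.16, between receptor genes 0.13 and between a pore and a receptor gene 0.16, against 0.00 for all pairs of genes, where positive and negative values cancel. Without regard to sign, the median was 0.23 between pore genes and 0.30 for all pairs, a measure that counts opposite courses as correlated. These correlations share the array scaling and the few high arrays, and are a description. Between KAP123, SXM1, NMD5, PSE1, LOS1 and KAP104, picked for their like courses, the 15 correlations ran from 0.61 to 0.94. NSP1 and NUP192 are adjacent on chromosome X with r = 0.67 over the 36 arrays. GLE2 and KAP123 are adjacent on chromosome V with r = 0.18, where KAP123 had the swing of 1.96 log2 and GLE2 that of 0.34.

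3 members had more than 1 probe set. For NUP85, the probe set used swung by 0.28 log2, and 3 dimmer ones swung by 1.04, 0.90 and 0.78 log2 with peaks at 9.3. These correlated with the one used at r = 0.33, 0.38 and 0.31, so the flat course of NUP85 depends on the probe set. For NUP170, a second probe set with a mean intensity of 2.21 swung by 0.10 log2 and correlated with the one used at r = 0.47. 3 dimmer ones of NUP170 swung more, by 0.38, 0.44 and 0.38 log2, with r = 0.61, 0.61 and 0.93, and the other 2, dimmer still, by 0.28 and 0.12 log2. For NUP49, the other probe sets, all dimmer, swung by 0.06 to 0.25 log2 and correlated with the one used at r = 0.20, 0.22 and 0.03. The course of NUP49 described above thus rests on 1 probe set.

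Other genes of nuclear transport were read from lists set beside the members. Their counts are read against the 78.8% of all genes called and the 38.1% called with at least 1 log2. Of 9 genes of the Ran cycle, 5 were called (55.6%), a smaller share than over all genes. Ran itself, GSP1, swung by 1.37 ± 0.20 log2 (SE) with a peak at 9.89, its exchange factor SRM1 by 1.65 ± 0.19 with a peak at 10.6, and the second Ran gene GSP2 by 2.23 ± 0.20 with a peak at 4.54. YRB1 and NTF2 were called at 0.45 and 0.56 log2, while RNA1, the GTPase activator of Ran, swung by 0.15 log2 and was not called. The 2 Ran genes thus had their peaks more than 5 intervals apart. Their sequences are nearly identical, and whether RNA of one bound the probes of the other was not tested.

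Of 18 measured mRNA export genes, 10 were called (55.6%, against 78.8% of all genes), and 1 of them, NPL3, reached 1 log2 (1.12 log2, peak 9.51). All 5 genes for the export of ribosomal subunits were called with at least 1 log2, against 38.1% of all genes: ARX1 at 2.73, ECM1 at 2.02, NMD3 at 1.89, BUD20 at 1.80 and RRP12 at 1.61, with peaks between 7.52 and 8.61. Of 5 pore proteins outside the symbol rule 4 were called (80.0%, near the share of all genes), led by POM33 at 1.78 log2 with a peak at 4.46, while SEC13, MLP1 and PER33 swung by 0.40 to 0.46 log2. Of 5 nuclear envelope genes of pore assembly 2 were called (40.0%), SRC1 at 0.95 log2 and BRR6 at 0.45.

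The mean course of the receptors lay close in time to that of the ribosomal proteins. A cosine fitted in each cycle put the peak of the receptor mean at 9.00 ± 0.42 (SD, n = 3 cycles), of the 7 importers at 9.03 ± 0.50, of 75 cytosolic ribosomal protein genes at 9.08 ± 0.22 and of 18 UTP genes of ribosome assembly at 8.57 ± 0.23. The pore mean peaked at 9.77 ± 0.66. The swings of these means were 0.51 log2 for the receptors, 0.97 for the importers, 1.06 for the cytosolic ribosomal proteins, 2.01 for the UTP genes and 0.16 for the pore. The 43 mitochondrial ribosomal protein genes peaked later, at 11.8 ± 0.25 (SD, n = 3 cycles). The peak times of the receptors, importers and cytosolic ribosomal proteins thus lay within 1 SD of each other. The 7 importers are part of the receptors, so those means are not independent. Each SD rests on 3 cycles of the same arrays, and the likeness was not tested.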

How the data were processed

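The authors deposited 1 table of 9335 probe sets on 36 arrays. The deposited values are linear intensities, and from the values each array's median is 1. The probe summary and scaling used by the authors are not stated in the labels or files. The platform annotation gave 1 symbol for 6504 probe sets, several for 328 and none for 2443, and 60 were controls. For each of 5656 genes the probe set of highest mean was kept. All 44 members matched the RefSeq gene table, which was used for names and neighbours only. No sequence was used here.

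Values were taken as log2(value + 0.0516), the 10th percentile of positive values. Fits used limma 3.58.1 in R 4.3.3 with a trend of variance on mean and adjustment by Benjamini-Hochberg over all genes. Pairs, counts and figures used matplotlib 3.10.9, pandas 2.3.3 and numpy 2.4.6 in Python 3.11.15. Tested on simulated data, the cosine test recovered 94% of swings of 1 log2 with 5 false calls among 5456 unchanged genes, and the test of positions 7 to 9 recovered 92% of steps of 1 log2. Alternatives covered scaling, pseudocount, dim genes, probe set, cycles and positions left out, error model and test.

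The members, lists, pairs and tests were chosen with earlier results of these data known. The rule for named genes took the largest and smallest swing of each role, both genes of each pair, the 3 smallest adjusted p for the 6-interval terms and every member not called. NUP120, NUP133, SEH1, GLE1, GLE2, NUP1, KAP104, MTR10 and KAP120 and the genes of the other lists were named after their values were seen.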

Additional observations from a re-analysis of the deposited data

How the results depend on the processing

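Of 44 members, 10 were called by the cosine test in every alternative run and 16 in none. Of those 16, the position factor called 6: KAP114, NSP1, NUP100, NUP159, NUP60 and NUP84. Pore genes called numbered 11, and 7 to 8 with 1 cycle left out, 13 with equal trimmed means, 13 without positions 8 and 9, 10 without the dimmest 25% of genes and 16 with the position factor. Receptor genes called numbered 10, and 7 to 8 with 1 cycle left out and 9 with equal trimmed means. Of all genes 78.8% were called, and 69.2% to 70.1% with 1 cycle left out and 78.3% with equal trimmed means. The share was 73.9% without positions 8 and 9, 82.6% without the dimmest 25% and 74.6% with the position factor. For the other counts in this paragraph the shares of all genes in the alternatives are not given. Pore genes with a called swing of at least 1 log2 numbered 1, and 0 after quantile normalization, with the pseudocount at the 25th percentile and without positions 8 and 9, and 0 to 1 with 1 cycle left out. Receptor genes of that size numbered 4, and 2 with the pseudocount at the 25th percentile and 2 without positions 8 and 9. NUP145 lay close to the limit of 1 log2. Members higher at positions 7 to 9 numbered 15, and 8 to 15 with 1 cycle left out. Those lower numbered 5, and 2 to 3 with 1 cycle left out. Members with 6-interval terms numbered 4, and 0 to 1 with 1 cycle left out. Fits with 1 cycle left out use 24 arrays. The swing of the pore mean course was 0.16 log2, 0.12 after quantile normalization and 0.20 with equal trimmed means; the cause was not tested. Equal trimmed means moved the median of all genes by -0.16 to 0.15 log2, depending on the array. The counts of pairs that differed were 4 or 5 in all settings run.

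Deviations of arrays from their position means correlated within a cycle with a median of 0.02 (range -0.68 to 0.47). Between cycles the median was -0.02 (range -0.50 to 0.65). The main fits therefore did not pair arrays by cycle, but medians near 0 over such ranges cannot show that cycles did not differ. With cycle as a replicate block, 12 pore genes (NUP82 added) and 10 receptor genes were called, 15 members were higher and 5 lower at positions 7 to 9, and 4 had 6-interval terms. No level or interaction call between cycles appeared in any setting run.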
